A study of Drosophila melanogaster with 8 samples.

Results

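Circadian clock proteins are made under tight control at the level of mRNA, and 7 RNA-binding and translational regulators with a role in fly rhythms were looked up in RNA from sorted brain neurons. They are tyf, Atx2, lark, nonA, me31B, pAbp and Lsm12. A row with the same name was found for 6 of these 7 genes among the 17868 genes counted in each library, and these 6 are described as the regulators here. Lsm12 had no row under that name. RefSeq lists it as another name of Lsm12a, which has a row, so the values of Lsm12a are given beside the 6 and are not counted with them.

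The libraries came from EGFP-labeled neurons, collected by FACS from pooled brains of male flies about 2 weeks old, which were kept in a light-dark cycle and received no treatment. In 4 libraries the neurons came from clk856>EGFP flies, in which clk856-GAL4 drives EGFP in most of the clock network, and in the other 4 from nSyb>EGFP flies, in which nSyb-GAL4 drives it in neurons of all kinds. Each genotype was sampled at ZT14 and at ZT2, ZT being hours after lights on, and each of these 4 conditions has 2 libraries, R1 and R2. The nSyb neurons are of all kinds and so can include clock neurons. By the study's methods, a clk856 sample held fewer sorted neurons than an nSyb sample and came from more brains. Both differ together with genotype, and their part in the differences between genotypes was not tested. The study's methods say that each dissociated sample yielded 2 sets of sorted neurons, so R1 and R2 may share a dissociation, and p-values then measure only the spread between such sets.

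The PERIOD (PER) and TIMELESS (TIM) proteins of the fly clock accumulate hours after their mRNAs, and their translation is one of the steps that set the delay. The TYF protein (gene tyf) and ATAXIN-2 (Atx2) act together with the poly(A)-binding protein pAbp and with LSM12 to activate translation of per mRNA, mainly in the pacemaker neurons that make the neuropeptide PDF. ME31B is an RNA helicase of P bodies, the cytoplasmic granules of silenced mRNA, and is another partner of ATX2. LARK is an RNA-binding protein that promotes translation of the kinase DOUBLETIME, the product of dco, and NONA is a mainly nuclear RNA-binding protein named for the vision and courtship song defects of its mutants.

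Reads on genes numbered 4823985 to 8439193 in the clk856 libraries and 7970236 to 8449829 in the nSyb libraries, and the shallowest library was R2 of clk856 at ZT2. Markers of neurons summed to 2204 to 2324 RPM (reads scaled to the total of the library) in clk856 libraries and 2024 to 2241 RPM in nSyb libraries. The 6 clock neuron markers (Clk, tim, per, vri, Pdf and cry) summed to 302.6 to 1348 RPM in clk856 libraries and 11.2 to 54.1 RPM in nSyb libraries, where Clk and Pdf did not exceed 3 reads. The labels of both genotypes thus matched their markers. All 6 glial markers were detected in both genotypes and summed to 76.2 to 120 RPM in clk856 libraries and 135 to 302 RPM in nSyb libraries, with no overlap. The marker sums of photoreceptors, muscle, fat body and hemocytes stayed at or below 13.1 RPM in every library. Because the RNA is bulk, fewer cells of a type and less RNA per cell cannot be told apart, and the part of the glial difference in the results below was not tested.

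All 6 regulators were detected well above the floor in all 8 libraries, with 651 reads (tyf) as the lowest count and 11898 (pAbp) as the highest. All 6 also passed the filter on low counts in every comparison. In dm6 coordinates, tyf lies on the plus strand of chromosome X at 4117020 to 4130016, and nonA and Lsm12a lie on the same chromosome and strand at 16361569 to 16371547 and at 12018640 to 12020719. Atx2 lies on 3R at 15408423 to 15417277, lark on 3L at 7339266 to 7341893, me31B on 2L at 10239341 to 10242172 and pAbp on 2R at 18140078 to 18147191, all on the plus strand. The files give 1 value per gene, so that UTRs, coding exons and introns are not separated. Annotated exons of tyf share 6.77% of their bases with Tip60 on the other strand and with a transposable element, and those of lark share 0.912% with Cln7 and eco. Since the counting strand is not given in the sources used here, reads of these short stretches are uncertain. The exons of the other 4 regulators overlap no other annotated gene, although nonA has a related gene, nonA-l, with which similar reads could be split.

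The genotypes were compared to ask which of the regulators differ between clock neurons and neurons in general. Atx2 was the one regulator that passed the test. Its RPM was 142.64 and 102.64 in clk856 neurons at ZT14 and 148.42 and 121.8 at ZT2, against 75.05 and 51.32 in nSyb neurons at ZT14 and 51.63 and 44.78 at ZT2. All 4 clk856 libraries were above all 4 nSyb libraries, and the lowest clk856 library and the highest nSyb library were both from ZT14. The mean was 129 ± 20.9 RPM in clk856 neurons and 55.7 ± 13.3 RPM in nSyb neurons (SD, n = 4 each), a ratio of 2.31. A two-sided exact permutation test gave p = 0.0286, the smallest that 4 libraries against 4 can give. The edgeR log2 fold change was 1.28 with a standard error of 0.20 and a 95% interval of 0.84 to 1.72, with an adjusted p of 0.00174 in edgeR's quasi-likelihood test. With each time point alone it was 1.04 at ZT14 (adjusted p = 0.108) and 1.57 at ZT2 (adjusted p = 0.0639) in the same edgeR test, so that Atx2 was not called within either time point.

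The change of Atx2 has to be read against that of all genes. Of 7784 genes tested, 1326 (17.0%) differed between the genotypes, 805 (10.3%) higher and 521 (6.69%) lower in clk856 neurons. Among the 6 regulators 1 was called, and it was higher, so that the share of calls was close to the background. Separation of all clk856 libraries above all nSyb libraries was seen for 13.5% of the 6987 genes with a mean of at least 3 RPM, and the reverse for 13.1%. The median log2 fold change of the 6 regulators was -0.21, beside -0.01 over all genes tested. By unadjusted p, Atx2 stood at rank 294 of all genes tested.

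**Figure D1:**
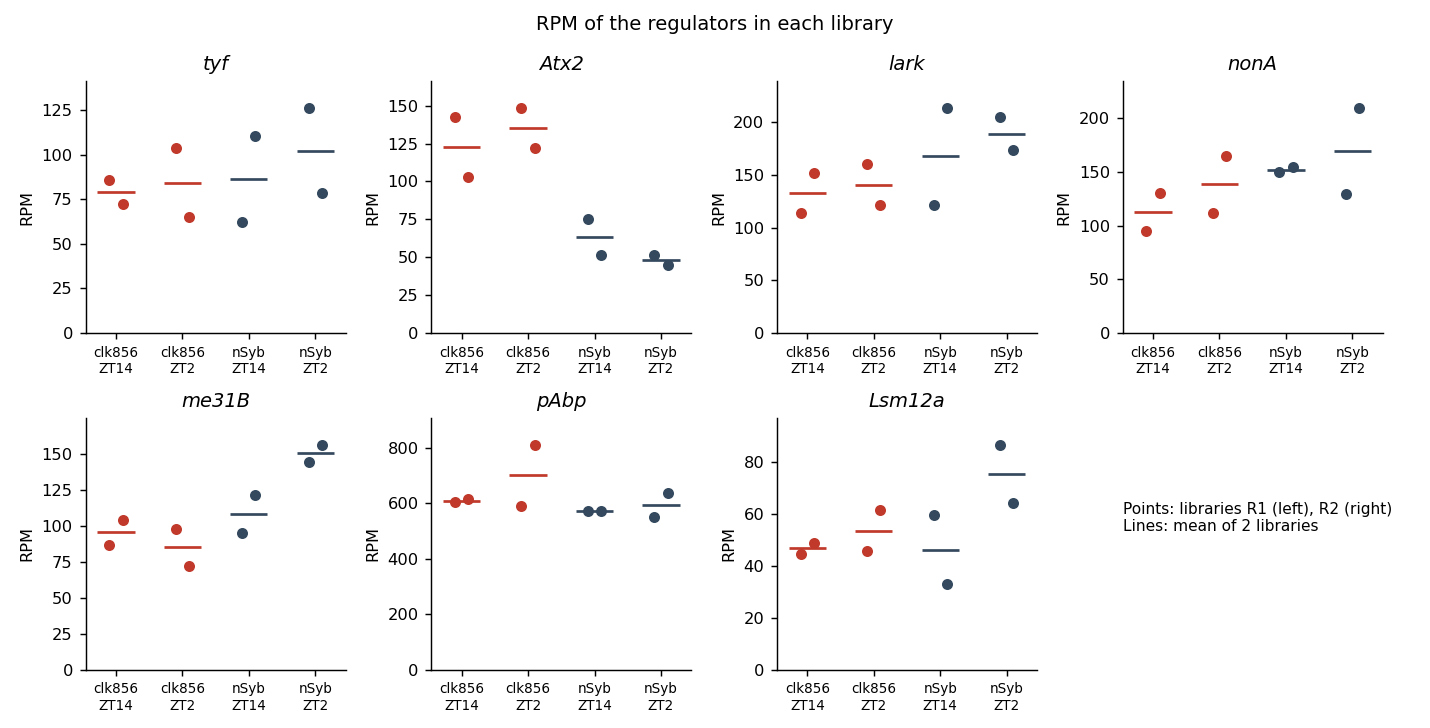
RPM (reads scaled to the library total) of the 6 regulators and Lsm12a in each of the 8 libraries, with clk856 left of nSyb and ZT14 left of ZT2. Each point is 1 library, R1 left of R2, and each line is the mean of 2 libraries. The Atx2 points of clk856 neurons (102.64 to 148.42 RPM) lie above those of nSyb neurons (44.78 to 75.05 RPM), while the points of each of the other genes overlap between genotypes.

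The partner of ATX2 in PER translation, tyf, was not called. Its RPM was 86.0 and 72.1 in clk856 neurons at ZT14 and 103.6 and 64.9 at ZT2, against 62.1 and 110.2 in nSyb neurons at ZT14 and 126 and 78.3 at ZT2. The clk856 libraries all lay inside the range of the nSyb libraries, and replicates of 1 condition differed by up to 1.77-fold. The means were 81.6 ± 17.1 RPM in clk856 neurons and 94.2 ± 29.2 RPM in nSyb neurons (SD, n = 4 each). The edgeR log2 fold change was -0.13 with a 95% interval of -0.66 to 0.39 (adjusted p = 0.773), so that the interval holds changes in both directions.

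pAbp, which binds the poly(A) tail of mRNA in the cytoplasm and joins it to the translation initiation factors, was the most abundant of the regulators. Its RPM was 604 and 613 in clk856 neurons at ZT14 and 589 and 810 at ZT2, against 573 and 572 in nSyb neurons at ZT14 and 549.7 and 638 at ZT2. The shallowest library, R2 of clk856 at ZT2, stood alone at the top, and the other 3 clk856 libraries lay inside the nSyb range. The means were 654 ± 105 RPM in clk856 neurons and 583 ± 38.2 RPM in nSyb neurons (SD, n = 4 each). The edgeR log2 fold change was 0.23, with a 95% interval of -0.02 to 0.49 and an adjusted p of 0.214, and without that library it was 0.11.

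Lsm12a, the gene that RefSeq also calls Lsm12 and whose product is known as an adapter between ATX2 and TYF, was measured at 44.6 and 48.7 RPM in clk856 neurons at ZT14 and 45.6 and 61.2 at ZT2, against 59.4 and 33.0 RPM in nSyb neurons at ZT14 and 86.5 and 64.2 at ZT2. The nSyb libraries spread more widely than the clk856 libraries and enclosed them. The edgeR log2 fold change was -0.22, with a 95% interval of -0.82 to 0.39 and an adjusted p of 0.665.

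me31B, the helicase of P bodies, came second among the regulators by unadjusted p and did not pass the test. Its RPM was 86.9 and 104 in clk856 neurons at ZT14 and 97.8 and 72.2 at ZT2, against 94.95 and 121 in nSyb neurons at ZT14 and 144 and 156 at ZT2. The genotypes overlapped at ZT14, and at ZT2 both clk856 libraries were below both nSyb libraries. The means were 90.2 ± 13.96 RPM in clk856 neurons and 129 ± 27.02 RPM in nSyb neurons (SD, n = 4 each, exact permutation p = 0.0857). The edgeR log2 fold change was -0.45 (95% interval -0.86 to -0.04, adjusted p = 0.128). DESeq2 gave -0.46 with an adjusted p of 0.0462, the 1 of 20 alternatives that called me31B. DESeq2 also called more genes in all, 2123 against 1326 in the main edgeR fit. The edgeR value was -0.10 with the ZT14 libraries alone and -0.74 with the ZT2 libraries alone.

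lark and nonA, which bind RNA in other steps of its life, were likewise not called. The RPM of lark was 114 and 152 in clk856 neurons at ZT14 and 160.03 and 122 at ZT2, against 122 and 213 in nSyb neurons at ZT14 and 205 and 174 at ZT2. The lowest nSyb library of lark fell within the clk856 range, and the other 3 lay above it. The RPM of nonA was 95.05 and 129.8 in clk856 neurons at ZT14 and 112 and 165 at ZT2, against 150.04 and 154 in nSyb neurons at ZT14 and 129 and 209 at ZT2. For nonA the highest clk856 library lay above 3 of the 4 nSyb libraries. The edgeR log2 fold changes were -0.31 for lark (95% interval -0.72 to 0.10, adjusted p = 0.305) and -0.29 for nonA (95% interval -0.75 to 0.16, adjusted p = 0.385).

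**Figure D2:**
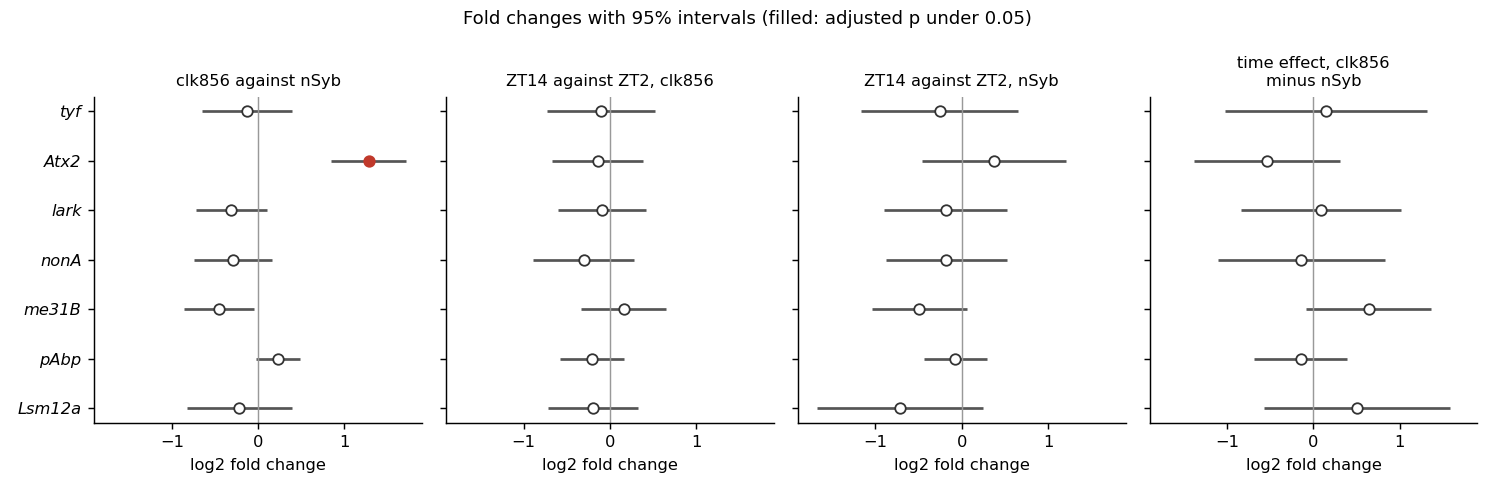
log2 fold changes from edgeR with 95% intervals for the 6 regulators and Lsm12a, for clk856 against nSyb, for ZT14 against ZT2 in each genotype and for the time effect in clk856 minus that in nSyb. Of all values shown, that of Atx2 between genotypes (1.28) is the one with an adjusted p under 0.05, as marked by its filled point.

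Because a ratio of 2 genes within a library does not depend on how libraries are scaled, Atx2 was also set against each of the other genes. The ratio of Atx2 reads to tyf reads was 1.42 to 1.88 in the clk856 libraries and 0.409 to 1.21 in the nSyb libraries. The ratio to pAbp was 0.1503 to 0.252 in clk856 and 0.0702 to 0.131 in nSyb, and that to Lsm12a was 1.99 to 3.26 in clk856 and 0.597 to 1.56 in nSyb. These are the genes whose products act with ATX2 on translation. The ratio to me31B was 0.987 to 1.69 in clk856 and 0.287 to 0.790 in nSyb, that to nonA 0.738 to 1.501 in clk856 and 0.214 to 0.500 in nSyb, and that to lark 0.675 to 1.25 in clk856 and 0.240 to 0.617 in nSyb. Atx2 was thus high relative to each of the other genes in every clk856 library, which shows unequal change within the group and not that the others were constant. None of the 6 ratios overlapped between genotypes. The RPM of Atx2 itself separated the genotypes, as that of 13.5% of genes did in this direction. All 6 ratios share the Atx2 counts and are a description of 1 difference. How often ratios of other genes separate was not computed.

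**Figure D3:**
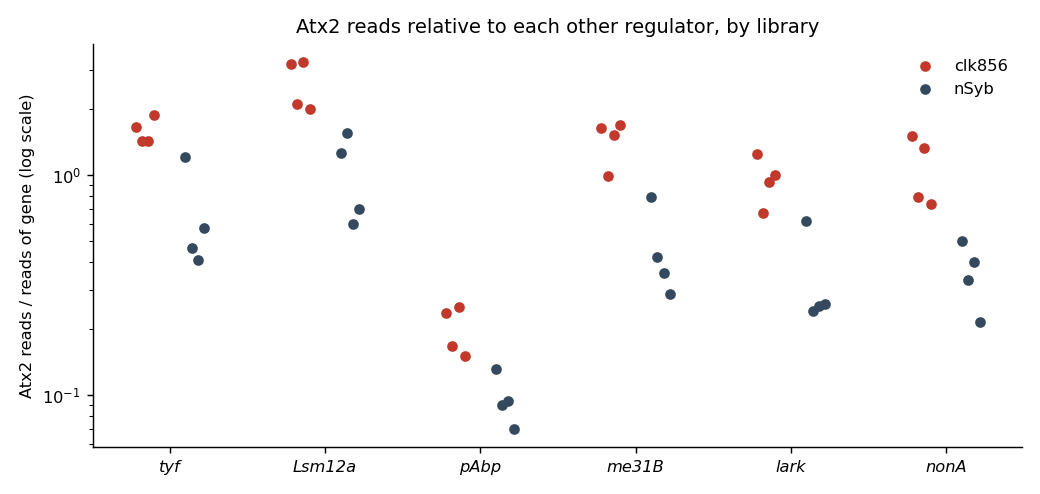
Ratio of Atx2 reads to the reads of each other regulator and Lsm12a in each library, on a log axis, with clk856 left of nSyb. Each point is 1 library, and for each of the 6 ratios the clk856 points lie above the nSyb points, as for tyf with 1.42 to 1.88 against 0.409 to 1.21.

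The order of the regulators was compared as RPM per kilobase of exon, since a longer mRNA gives more reads. In clk856 neurons pAbp had the highest level with 152 RPM per kilobase, followed by lark with 62.5, me31B with 48.9, Atx2 with 22.3, nonA with 15.6 and tyf with 7.13. The neighbours lark and me31B overlapped between libraries, as did Atx2 and nonA, and the other neighbours did not. In nSyb neurons the order was pAbp with 135 RPM per kilobase, lark with 81.4, me31B with 69.9, nonA with 20, Atx2 with 9.63 and tyf with 8.22. There lark and me31B overlapped again, and Atx2 overlapped with tyf and no longer with nonA. Atx2 thus stood beside nonA in clk856 neurons and beside tyf in nSyb neurons. With the length of the longest transcript in place of the exon bases the order was the same in both genotypes. Lsm12a lay below me31B and above the next regulator in both genotypes, with 40.0 RPM per kilobase in clk856 neurons and 48.6 in nSyb neurons.

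Ranked among all genes with reads in a library by RPM without regard to length, pAbp lay at the 99.3 percentile in clk856 neurons and the 99.2 percentile in nSyb neurons on average. Genes with reads numbered 8939 to 9991 in clk856 libraries and 7937 to 8400 in nSyb libraries. The percentiles of the genotypes thus rest on different totals. Atx2 lay at the 89.1 to 93.0 percentile in clk856 libraries and at the 69.3 to 80.9 percentile in nSyb libraries. tyf lay at the 84.2 percentile on average in both. The regulators were therefore among the more abundant mRNAs of these neurons, with Atx2 in nSyb neurons the lowest of the 6.

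**Figure D4:**
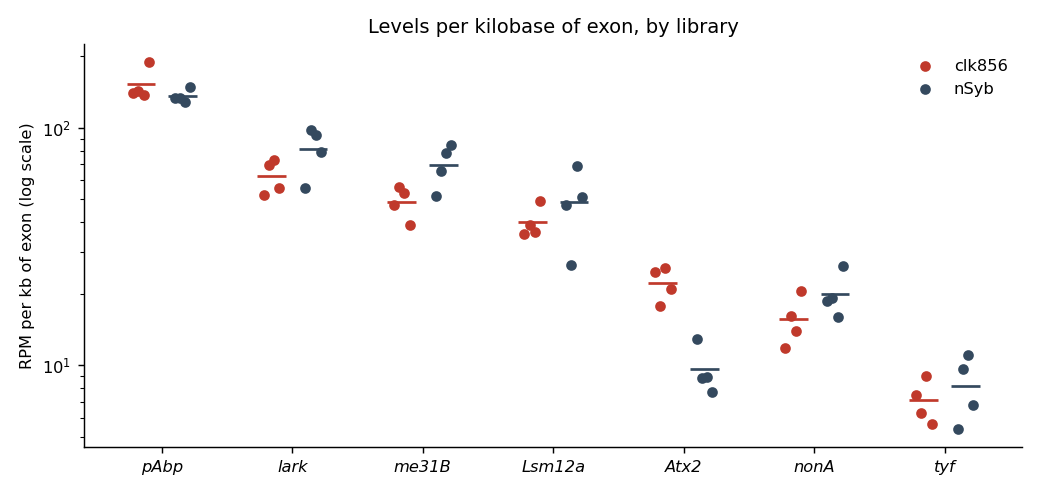
Levels of the 6 regulators and Lsm12a in RPM per kilobase of exon, on a log axis, for clk856 and nSyb neurons. Each point is 1 library and each line the mean of 4, and Atx2 lies beside nonA in clk856 neurons (means 22.3 and 15.6) and beside tyf in nSyb neurons (means 9.63 and 8.22).

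The time points were compared to ask whether the mRNAs of the regulators differ between early night and early day. In clk856 neurons edgeR called 2 of 8188 genes (0.0244%), tim and vri, 2 rhythmic genes of the clock itself, and 554 had an unadjusted p under 0.05. None of the 6 regulators was called by edgeR's quasi-likelihood test, its likelihood ratio test or DESeq2, and none had an unadjusted p under 0.05 in the first. Their log2 fold changes at ZT14 against ZT2 lay between -0.30 (nonA) and 0.16 (me31B), with adjusted p values of 0.845 to 0.974. That of Atx2 was -0.14, with a 95% interval of -0.67 to 0.38, and those of tyf, lark and pAbp were -0.10, -0.09 and -0.20. The interval of pAbp was the narrowest, from -0.57 to 0.17, and changes inside such an interval are compatible with these 2 libraries per time point. An exact permutation test of 2 against 2 cannot give a p below 0.333.

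In nSyb neurons edgeR called none of 7671 genes (0%), and 303 had an unadjusted p under 0.05. The likelihood ratio test called 6 genes and DESeq2 called 224, none of them one of the regulators. The replicates were further apart, with a biological coefficient of variation of 0.795, against 0.414 in clk856 neurons. me31B had 94.95 and 121 RPM at ZT14 against 144 and 156 RPM at ZT2 in nSyb neurons. Its log2 fold change was -0.49 with a 95% interval of -1.04 to 0.06 and an unadjusted edgeR p of 0.0710 (adjusted p = 0.9999). The time points did not overlap for me31B, nor for Lsm12a. With 2 libraries against 2 such separation is frequent by chance, as an exact permutation test cannot give a p below 0.333. The share of all genes without such overlap was not computed, and nothing is concluded from it. Atx2 was at 0.38, tyf at -0.25, lark at -0.19, nonA at -0.18 and pAbp at -0.07 on the log2 scale, and Lsm12a was at -0.71 with a 95% interval of -1.68 to 0.25.

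Whether ZT14 and ZT2 differed by another amount in clk856 than in nSyb neurons was tested as an interaction over all 8 libraries. It was called for 1 of 8926 genes (0.0112%), the heat shock gene Hsp68, named here after its value was seen, and 581 genes had an unadjusted p under 0.05. None of the regulators was called by edgeR or DESeq2 and none had an unadjusted p under 0.05. The largest value among them was that of me31B, whose time effect was 0.64 higher in clk856 than in nSyb neurons on the log2 scale, with a 95% interval of -0.08 to 1.36 and an adjusted p of 0.783. For Atx2 the difference was -0.54, with a 95% interval of -1.38 to 0.31 and an adjusted p of 0.885.

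The genes that act with the regulators were followed in lists compiled by function. Of 9 tested genes for cap binding and translational control, the processes in which ATX2, TYF and pAbp act, 5 were higher and none was lower in clk856 neurons, with a median log2 fold change of 0.42 beside -0.01 over all genes and 10.3% of all genes called higher. With library size as the only scaling 3 of the 9 were called, and over all genes 675 were then higher and 787 lower, in place of 805 and 521. eIF4A, the helicase of translation initiation, averaged 618 ± 18.6 RPM in clk856 neurons and 351 ± 54.1 RPM in nSyb neurons (SD, n = 4 each), a log2 fold change of 0.89 (adjusted p = 5.4e-04 in edgeR). NAT1, a protein related to eIF4G, was higher by 1.65 on the log2 scale and rin, the fly form of the stress granule protein G3BP, by 1.03. eIF4G1, the scaffold of the cap complex, was higher by 0.42 and Fmr1, the fly fragile X protein, by 0.75. The last 2 were near the threshold, with adjusted p values of 0.0370 and 0.0495 in edgeR, and lost the call when most single libraries were left out, since eIF4G1 was called in 2 and Fmr1 in 1 of 8 such fits. The cap-binding protein eIF4E1 had a log2 fold change of -0.06 and the repressor eIF4EHP one of 0.01, and neither was called. cup had no reads in any library and was not tested.

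Of 11 P body, decapping and decay genes that act with ME31B, 2 were higher, none was lower and 9 were not called, beside 10.3% higher and 6.69% lower over all genes, and their median log2 fold change was 0.19. tral, a direct partner of ME31B, averaged 107 ± 7.68 RPM in clk856 neurons and 70.3 ± 7.44 RPM in nSyb neurons (SD, n = 4 each), a log2 fold change of 0.68 (adjusted p = 0.00632 in edgeR). Ge-1, a scaffold of the decapping complex, was higher by 1.32 on the log2 scale. The decapping enzyme DCP2 was at 0.19 and 4E-T, another ME31B partner, at 0.66, and neither was called. Without R1 of clk856 at ZT2, 4E-T was called with 0.85.

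Of 9 genes of the CCR4-NOT deadenylase, the complex that shortens poly(A) tails, Cnot4 was higher by 0.45 and Not10 was lower with -0.88 on the log2 scale. The other 7 were not called, beside 10.3% higher and 6.69% lower over all genes, and the median was -0.21. With library size as the only scaling 0 were higher and 2 lower, and the same number were lower with DESeq2. Over all genes, library size alone gave 675 higher and 787 lower, in place of 805 and 521. DESeq2 called 2123 genes in all, in place of 1326. Not3 at 0.00 and Rcd-1 at -0.35 were the most abundant of those 7. Cnot4 was called in 2 and Not10 in 5 of the 8 fits with 1 library left out, and Not10 lost the call without R1 (-0.85) or R2 (-0.75) of clk856 at ZT14 or R1 of nSyb at ZT14 (-0.82). Without the last of these libraries Not11 was called with -1.02. With all libraries, none of 6 microRNA silencing genes was called by edgeR's quasi-likelihood test or its likelihood ratio test, and none of the 5 with an adjusted p was called by DESeq2. The quasi-likelihood test called 17.0% of all genes. None had an unadjusted p under 0.05, and AGO1 and gw were at -0.01 and -0.16 on the log2 scale. drosha, a nuclear enzyme of microRNA processing, averaged 14.5 ± 4.33 RPM in clk856 neurons and 4.115 ± 6.61 RPM in nSyb neurons (SD, n = 4 each). Its level was thus low, with an SD above the mean in nSyb neurons. Without R1 of nSyb at ZT14, drosha was called with 4.22 (edgeR adjusted p = 0.00375), against 1.87 with all libraries. This was 1 of 20 alternatives, and no other called drosha. Leaving out a library with a high nSyb value raises the fold change by itself, so that nothing is concluded from this call.

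Among 13 nuclear RNA-binding relatives of NONA and LARK, 1 was higher, 3 were lower and 9 were not called, beside 10.3% higher and 6.69% lower over all genes, and the median log2 fold change was -0.15. With library size as the only scaling 0 were higher and 6 lower, and with DESeq2 2 were higher and 5 lower. Calls over all genes moved as well. They were 675 higher and 787 lower with library size alone, in place of 805 and 521, and 2123 in all with DESeq2, in place of 1326. Without 1 library, B52 (-0.36, R1 of nSyb at ZT2) or Hrb87F (1.17, R2 of nSyb at ZT2) was called as well. Hrb98DE, which encodes a nuclear hnRNP protein, averaged 237 ± 6.99 RPM in clk856 neurons and 337 ± 25.9 RPM in nSyb neurons (SD, n = 4 each), a log2 fold change of -0.44 (adjusted p = 0.00576 in edgeR). The hnRNP gene glo was also lower with -0.79, and x16, a splicing factor gene of the SR family, was higher with 0.76. x16 was called in 1 and glo in 5 of the 8 fits with 1 library left out, and glo lost the call without R1 (-0.72) or R2 (-0.77) of clk856 at ZT14 or R2 of clk856 at ZT2 (-0.79). The most abundant genes not called were Hrb27C with -0.08 and hfp with -0.35, and the paralog nonA-l was not called with 0.10.

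**Figure D5:**
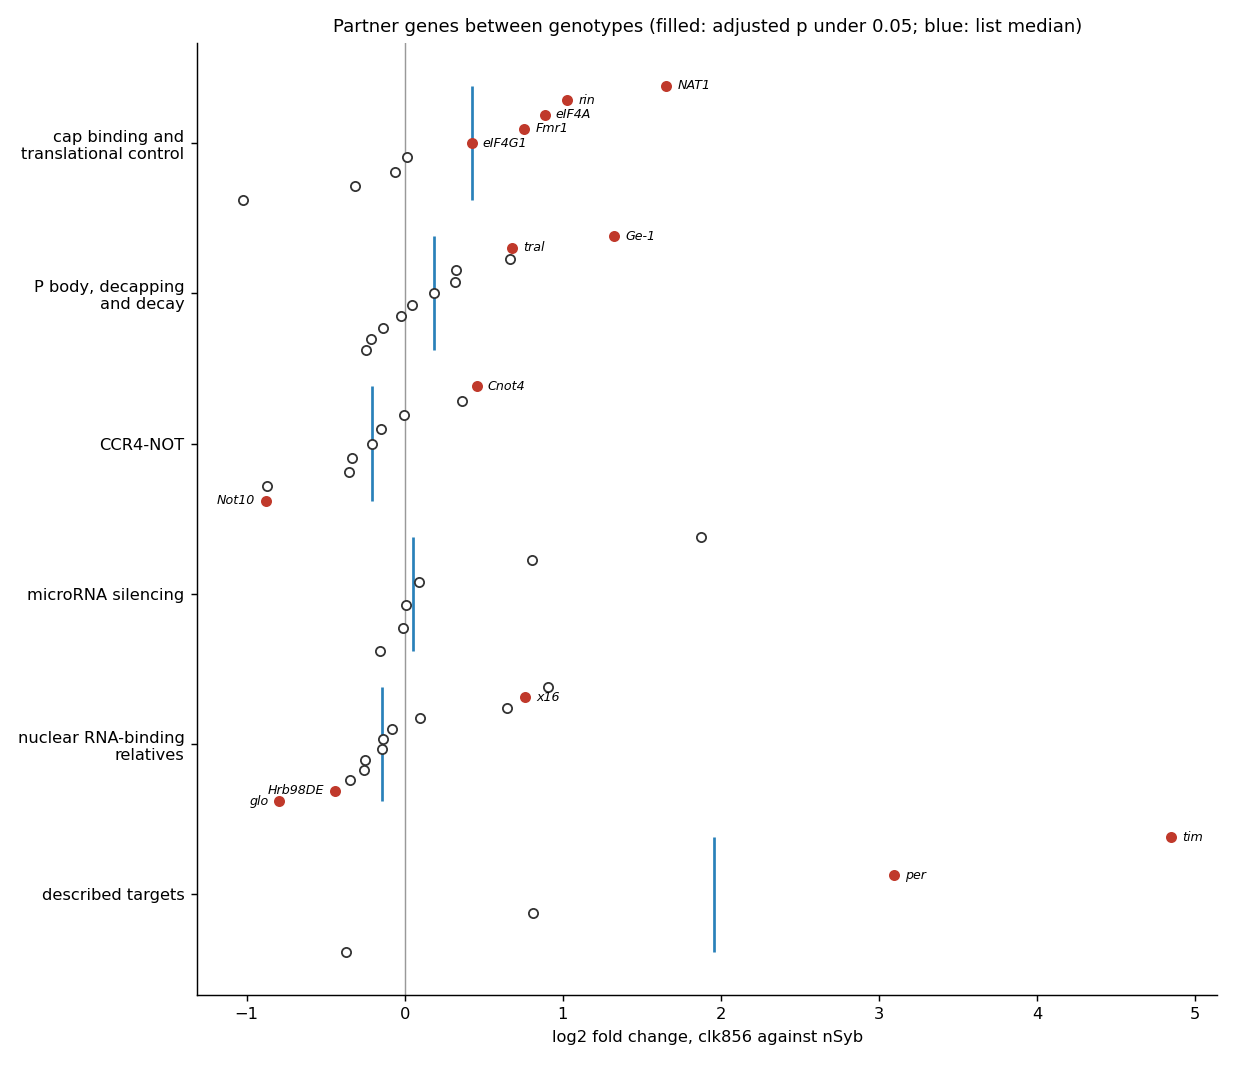
log2 fold changes between clk856 and nSyb neurons of genes in 6 lists of partners and described targets of the regulators, with 1 called gene of the nuclear relatives not drawn. Each point is 1 gene, filled points have an adjusted p under 0.05, and the blue lines give the list medians, such as 0.42 for cap binding and -0.15 for the nuclear relatives.

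Of the 4 mRNAs described as targets of the regulators, per averaged 42.9 ± 15.9 RPM in clk856 neurons and 5.29 ± 5.05 RPM in nSyb neurons, and tim averaged 269.8 ± 285 RPM in clk856 neurons and 9.80 ± 9.98 RPM in nSyb neurons (SD, n = 4 each). Both were called higher, per by 3.09 and tim by 4.85 on the log2 scale, and both are among the markers by which the sort was checked. The call of tim was lost without R1 (4.37) or R2 (4.27) of clk856 at ZT14, R1 of nSyb at ZT14 (4.55) or R2 of nSyb at ZT2 (4.78). dco, whose mRNA LARK acts on, averaged 30.02 ± 3.10 RPM in clk856 neurons and 18.0 ± 5.65 RPM in nSyb neurons (SD, n = 4 each), and its log2 fold change of 0.81 missed the threshold with an adjusted p of 0.0852 in edgeR. Eip74EF, another described target of LARK, was at -0.37 and was not called. Over all lists, 11 of 52 genes tested were higher and 4 were lower, beside 10.3% and 6.69% over all genes, and the median log2 fold change was 0.00. The 11 include per and tim, the markers used to check the sort, so that the count is not one of partners alone. The lists were chosen with results of these data known, and the difference from the background was not tested. None of the list genes was called with the ZT2 libraries alone, where 8 genes were called in all. With the ZT14 libraries alone 5 list genes were called, where 340 genes were called in all. Between time points, tim in clk856 neurons was the one list gene called.

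The gene whose pattern over the 8 libraries was most like that of a regulator was found by Pearson's r of TMM-scaled log2 CPM, as a description in which all genes share the same 8 libraries. For Atx2 it was alpha-Spec, the cytoskeletal alpha spectrin, with r = 0.985. For me31B it was the histone gene His2Av with r = 0.981 and for lark the histone mRNA binding gene Slbp with r = 0.958. For tyf it was CG8079 with r = 0.953, and for pAbp a long noncoding RNA gene, lncRNA:CR44922, with r = 0.958. Each of these r values is the highest among the other genes tested. For Atx2, 30 genes had an r above 0.95. alpha-Spec was itself higher in clk856 neurons, by 1.30 on the log2 scale (adjusted p = 0.00272 in edgeR). Since it was picked for following Atx2 over the same libraries, this difference is no separate finding.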

How the data were processed

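RNA of 8 libraries of sorted neurons was amplified with SMART-seq2 and sequenced after Nextera XT preparation. The authors aligned reads to dm6 with STAR, removed duplicates with Picard and deposited counts of raw reads for 17868 genes. The submitters' processing notes name bcl2fastq 2.20. The counting program, its strand setting and the annotation release are not given in the sources used here. The RPM values were deposited by the authors after scaling to a library total above the reads listed, and are used for levels. A count of 3 reads equals 0.161 to 0.299 RPM. Reads on no gene (5.53% to 8.94%) and ambiguous reads (5.67% to 6.10%) were left out.

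Counts were tested with edgeR 4.0.16 in R 4.3.3, using TMM scaling, filterByExpr, the quasi-likelihood test and Benjamini-Hochberg adjustment over all genes tested, with a threshold of 0.05. Genotypes were compared 4 against 4 over both time points, time points 2 against 2 within genotype, and the interaction over 4 conditions. Exact permutation tests of single genes, two-sided and on RPM, were run with scipy 1.17.1. The scripts were tested on simulated data. The alternatives included DESeq2 1.42.0, other tests, scalings and filters, each time point alone, the replicate number as a block and leaving out each library. Replicates differed by more than counting error, with chi-square over degrees of freedom of 19.1 to 93.3.

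Gene positions and the bases of merged exons were read from Ensembl BDGP6.54, which has dm6 coordinates. For all 6 regulators the deposited length was the annotated span plus 1, introns included, so that deposited RPKM values were not used. Names of DCP1, DCP2 and hfp were matched through RefSeq. Lists were compiled by hand from function, and the members and lists were chosen with earlier results of these data known. The text names every regulator, every list gene past the threshold, the 2 most abundant other genes of each list and the gene most like each regulator, and in addition cup, which had no reads, the paralog nonA-l and, chosen after their values were seen, list genes that a fit without a single library called. A called list gene and the gene most like nonA are not reported here. No sequences are shown.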

Additional observations from a re-analysis of the deposited data

Results flagged for a closer look

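Each regulator and Lsm12a was examined for a library far from the others of its genotype, over 14 groups of 4 libraries, of which chance would mark about 5%. In 1 group a library stood apart: the pAbp level of R2 of clk856 at ZT2 was 810.22 RPM, while the other 3 clk856 libraries were at 589 to 613 RPM. It is the shallowest library, with 4823985 reads on genes, and without it the log2 fold change of pAbp between clk856 and nSyb was 0.11 (edgeR adjusted p = 0.496) in place of 0.23.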

How the results depend on the processing

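The call of Atx2 between genotypes kept its direction in 20 of 20 alternatives and an adjusted p under 0.05 in 18, with log2 fold changes of 1.04 to 1.57 over all of them and of 1.20 to 1.46 (edgeR adjusted p 0.001 to 0.00779) with each library left out. Regulators called numbered 2 with DESeq2, which added me31B, and 0 with the ZT2 libraries alone or with the ZT14 libraries alone, where fewer libraries are compared. Calls over all genes were 2123 with DESeq2, 8 at ZT2 alone and 340 at ZT14 alone, and those in the partner lists, 15 in all, were 0 at ZT2 alone, 5 at ZT14 alone and 8 to 14 with each library left out. With library size as the only scaling the median over all genes tested moved to -0.14 from -0.01, with 675 genes higher and 787 lower in place of 805 and 521. The value of Lsm12a was 0.0873 at ZT14 alone, and leaving out each library gave -0.28 to 0.0391 for tyf.

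Between time points no alternative called a regulator. Genes called in clk856 numbered 97 with the likelihood ratio test, 85 with DESeq2, 81 with no filter, 0 in 1 fit of all 8 libraries and 4 with the replicate block. In nSyb they numbered 6 with the likelihood ratio test, 224 with DESeq2, 1 in 1 fit of all 8 libraries and 0 to 1 with each library left out. For the interaction they numbered 85 with the likelihood ratio test, 178 with DESeq2, 98 with no filter and 0 to 85 with each library left out, the 85 without R2 of nSyb at ZT2. The cause of these differences was not tested. With each library left out, the log2 fold changes between time points in clk856 ran from -0.40 to 0.28 for tyf, -0.42 to 0.0877 for Atx2, -0.29 to 0.12 for lark, -0.0491 to 0.39 for me31B, -0.42 to 0.0345 for pAbp and -0.40 to 0.0202 for Lsm12a. In nSyb they ran from -0.70 to 0.10 for tyf, -0.63 to 0.16 for lark, -0.50 to 0.26 for nonA and -0.20 to 0.0824 for pAbp. The interaction ran from -0.19 to 0.61 for tyf, -0.24 to 0.54 for lark, -0.57 to 0.21 for nonA and -0.35 to 0.10 for pAbp. The signs of these time effects were not stable.

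Libraries with the same replicate number did not deviate together (r of -0.03 to 0.03 across genes), so that the numbers do not pair them. With the replicate block Atx2 was at 1.28 with an edgeR adjusted p of 0.00106, 1265 genes and 1 regulator were called between genotypes, and no call of a regulator changed.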

Other observations

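Within libraries, me31B reads per pAbp read were 0.0891 to 0.170 in clk856 neurons and 0.166 to 0.262 in nSyb neurons, and tyf reads per pAbp read were 0.0801 to 0.176 in clk856 neurons and 0.108 to 0.229 in nSyb neurons. Both ratios overlapped between genotypes. Over the 6 regulators and Lsm12a, the highest over the lowest of the 4 libraries ran from 1.37 (Lsm12a) to 1.74 (nonA) in clk856 and from 1.16 (pAbp) to 2.62 (Lsm12a) in nSyb. Between replicates of 1 condition, genes with a mean of at least 30 RPM differed by a median factor of 1.13 to 1.18 in clk856 and 1.23 to 1.30 in nSyb. tyf differed more than this median between replicates in each of the 4 conditions, by 1.19 to 1.77 times.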
